A study of Mus musculus with 12 samples.

Results

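The acid-sensing ion channel genes Asic1, Asic2, Asic3 and Asic4 and the mechanically gated channel genes Piezo1 and Piezo2 were followed in mouse trigeminal ganglia, the sensory ganglia of the face and meninges. The genes were chosen by symbol, and each matched 1 Ensembl gene, so that 6 of the 51341 genes in the deposited table are described here. RNA sequencing with poly A selection was done on 12 CD1 mice, an outbred stock, with 1 library per mouse. The mice were 6 responders (3 males and 3 females) and 6 nonresponders (3 males and 3 females) to the neuropeptide PACAP (pituitary adenylate cyclase-activating polypeptide), and the study's title names light aversion as the response. None of the sources used here gives ages, the dose of PACAP, the time from PACAP to dissection or the way the response was scored. The first number in each sample's description (44, 45, 48 and 49 in responders, 68, 82 and 83 in nonresponders) was never shared between the groups, so that whatever it stands for cannot be told apart from the response.

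Acid-sensing ion channels are sodium channels of the degenerin and epithelial sodium channel family that open when the extracellular fluid turns acidic. Asic3 is the member best known from sensory neurons, where it takes part in acid-evoked pain, and Asic1 and Asic2 are found in both peripheral and central neurons. Asic4 does not form a proton-gated channel on its own. Piezo channels open when the membrane is stretched: Piezo2 is the main channel of light touch and proprioception in sensory neurons, and Piezo1 is best known from endothelium and red blood cells.

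Levels are given as FPKM, fragments scaled to the length of the gene and to the depth of the library, so that genes of different length can be set side by side. The settings by which reads were assigned to genes are not known. A low listing of a gene therefore need not mean a low level in the ganglion, and comparisons between genes hold for the deposited values. Total FPKM per mouse ranged from 286388 to 358590. The number of fragments per mouse, as implied by the smallest steps in the values of single-exon genes, ranged from about 17.0 M in responder 1 to about 38.9 M in nonresponder 4. All 16 sensory neuron marker genes in a fixed list were detected widely enough to be tested, among them Tubb3, a neuronal tubulin, at 428 to 1010 FPKM in responders and 502 to 842 in nonresponders. Responder 1 stood apart from the other mice in transcripts of the pituitary gland, and nonresponder 4 in those of neutrophils and macrophages. Their values are given below beside the results they touch. In a bulk sample, fewer cells of a type and less RNA per cell cannot be told apart.

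The members lie on different chromosomes of GRCm38, and all are protein-coding. Asic3 (ENSMUSG00000038276) is the most compact, at chromosome 5 from 24413392 to 24417835 on the plus strand, a span of 4.44 kb. Asic1 (ENSMUSG00000023017) lies on chromosome 15 from 99670368 to 99701130 on the plus strand. Asic4 (ENSMUSG00000033007) lies on chromosome 1 from 75450436 to 75474343 on the plus strand. Asic2 (ENSMUSG00000020704) spans 1088289 bases of chromosome 11, from 80880169 to 81968457 on the minus strand. Piezo1 (ENSMUSG00000014444) lies on chromosome 8 from 122481698 to 122551329 on the minus strand. Piezo1 overlaps Ctu2, a gene for a tRNA-modifying enzyme, on the opposite strand. Ctu2 was measured at 3.32 to 4.67 FPKM, and a Piezo1 transcript shares 1490 bases at 100% with it. No source used here states if reads were counted by strand, so that the split of reads between these genes is uncertain. The same holds for Asic4, which Gm37264, an unclassified gene listed at 0.028 to 1.484 FPKM, overlaps on the opposite strand. Genes that overlap Asic2 were listed at 0.159 FPKM or less. No transcript of another gene matched Piezo2 or the ASIC genes at 90% identity over 200 bases.

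The start regions of the most abundant member, Asic3, and of a low one, Piezo1, are shown because they stand at the low and the high end of the CG dinucleotide counts among the members with such a region. Each runs 5′ to 3′ from 250 bases before to 50 bases after the annotated start, as RefSeq gives it on GRCm38.p6, and capitals mark every CG dinucleotide. The Asic3 window lies at chr5:24413201-24413500 on the plus strand and the Piezo1 window at chr8:122551280-122551579 on the minus strand.
Asic3: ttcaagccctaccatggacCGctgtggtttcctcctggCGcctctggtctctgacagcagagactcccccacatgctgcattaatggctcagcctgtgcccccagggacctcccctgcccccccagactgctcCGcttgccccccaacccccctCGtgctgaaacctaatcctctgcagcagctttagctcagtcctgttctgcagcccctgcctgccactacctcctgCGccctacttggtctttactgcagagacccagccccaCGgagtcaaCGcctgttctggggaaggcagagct
Piezo1: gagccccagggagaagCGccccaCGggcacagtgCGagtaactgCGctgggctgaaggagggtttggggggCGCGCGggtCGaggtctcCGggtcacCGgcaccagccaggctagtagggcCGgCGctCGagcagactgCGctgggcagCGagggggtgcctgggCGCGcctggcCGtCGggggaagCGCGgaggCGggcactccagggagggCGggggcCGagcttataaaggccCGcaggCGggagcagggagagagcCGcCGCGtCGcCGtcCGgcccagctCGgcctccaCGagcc
The Asic3 window holds 7 CG dinucleotides, the median of the 32851 windows of this length in the table, and the Piezo1 window holds 34, a number that 7.73% of the windows reach. GGGCGG, searched on both strands, is in the Piezo1 window and in 35.7% of all windows, and TATAAA, searched likewise, is in the Piezo1 window and in 13.6%. Neither run of letters is in the Asic3 window.

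Asic3 was the most abundant member, with Asic1 next. Asic3 was measured at 24.2, 41.6, 40.1, 55.9, 56.8 and 57.6 FPKM in responders 1 to 6, and at 55.5, 60.1, 44.8, 42.8, 58.7 and 50.3 FPKM in nonresponders 1 to 6. Responder 1 was the lowest of all mice, and the groups overlapped. Asic1 was measured at 34.7, 31.2, 29.7, 33.4, 39.1 and 33.5 FPKM in responders, and at 29.4, 33.8, 24.6, 21.2, 32.3 and 33.3 FPKM in nonresponders. Responder 5 was the highest and nonresponder 4 the lowest for Asic1, while responder 1, the lowest for Asic3, was the next highest. Among the 14203 genes tested, 92.5% had a lower mean level than Asic3 and 87.8% a lower one than Asic1.

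Piezo2 (ENSMUSG00000041482, spanning 377 kb of chromosome 18 on the minus strand) held a middle place, with 3.60, 5.33, 3.77, 4.64, 3.51 and 4.62 FPKM in responders, and 2.56, 3.99, 5.04, 3.46, 4.03 and 3.84 FPKM in nonresponders. The highest mouse for Piezo2, responder 2, had 2.08 times the level of the lowest, nonresponder 1, beside 1.85 times for Asic1. Piezo1 stood at 1.22, 1.13, 1.3, 1.24, 0.604 and 0.900 FPKM in responders, and at 1.12, 0.876, 1.43, 2.85, 1.14 and 0.964 FPKM in nonresponders. Nonresponder 4 lay apart from the other mice, which ran from 0.604 to 1.43 FPKM.

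Asic2 and Asic4 were low in most mice and did not pass the filter of at least 1 FPKM in at least 3 mice, so that 4 of the 6 members entered the test over all genes. Asic2 was listed at 0.192, 0.474, 0.575, 0.521, 0.702 and 0.412 FPKM in responders, and at 0.728, 0.755, 0.656, 0.338, 0.524 and 0.610 FPKM in nonresponders. No mouse reached 1 FPKM, and the lowest values were those of responder 1 and nonresponder 4. Asic4 was listed at 15.5, 1.68, 0.528, 0.162, 0.174 and 0.242 FPKM in responders, and at 0.0747, 0.0861, 0.318, 0.171, 0.319 and 0.243 FPKM in nonresponders. Responders 1, 2 and 3 lay above all nonresponders, and the other responders lay within the nonresponder range.

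**Figure D1:**
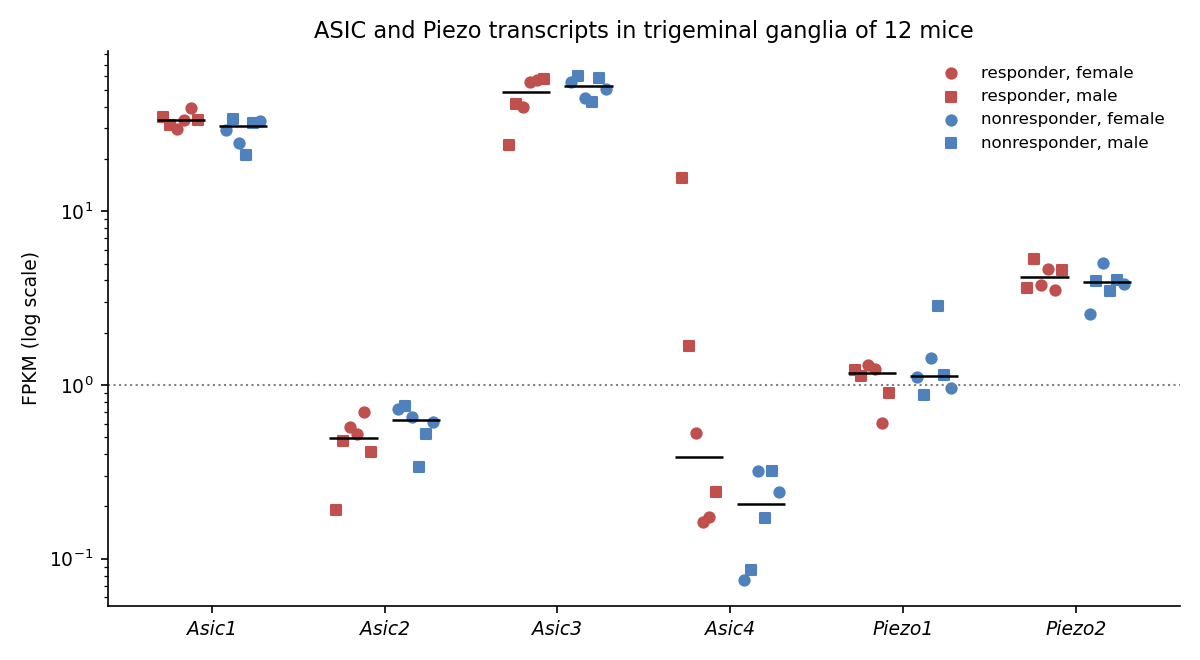
FPKM of each gene (log scale) in 6 responders (red, left) and 6 nonresponders (blue, right); each point is a mouse, squares are males, circles are females, black lines are group medians and the dotted line marks 1 FPKM. The groups overlap for every gene, and the points that stand apart are responder 1 for Asic4 (15.5 FPKM) and nonresponder 4 for Piezo1 (2.85 FPKM).

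By mean level the order was Asic3 (49.0 FPKM), Asic1 (31.4), Piezo2 (4.03), Asic4 (1.63), Piezo1 (1.23) and Asic2 (0.541). Neighbours in this order were compared within each mouse by an exact sign-flip permutation test on log2(FPKM + 1), 2-sided and adjusted over the 5 pairs. Asic3 exceeded Asic1 in 11 of 12 mice, responder 1 being the exception (mean log2 difference 0.61 ± 0.40, SD; exact p = 0.00195, adjusted p = 0.00305). Asic1 exceeded Piezo2 in 12 of 12 mice (2.69 ± 0.32; exact p = 0.000488, the smallest this test can give). Piezo1 exceeded Asic2 in 11 of 12 mice (0.51 ± 0.41; exact adjusted p = 0.00244). The place of Asic4 rested on responder 1: Piezo2 exceeded it in 11 of 12 mice (1.62 ± 1.13; exact adjusted p = 0.00305), but its level was above that of Piezo1 in only 2 mice (-0.42 ± 1.14; exact p = 0.233). This last outcome depended on the pseudocount, as all 5 pairs passed with a pseudocount of 0.1. There the pair passed with Asic4 below Piezo1, against the order of the means. Without responder 1, and likewise when ordered by the median, Asic4 came last. In the order by the median, Asic2 and Asic4 did not differ past the test (exact p = 0.963).

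None of the channel genes differed between responders and nonresponders past the test. Asic1 averaged 33.6 ± 3.23 FPKM in responders and 29.1 ± 5.16 FPKM in nonresponders (SD, n = 6 per group), and 5 of 6 responders lay above the nonresponder median. Asic3 averaged 46 ± 13.2 FPKM in responders and 52.0 ± 7.26 FPKM in nonresponders, and 3 responders lay below every nonresponder. Piezo2 averaged 4.24 ± 0.729 FPKM in responders and 3.82 ± 0.811 FPKM in nonresponders. Piezo1 averaged 1.06 ± 0.265 FPKM in responders and 1.40 ± 0.736 FPKM in nonresponders.

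The test was limma on log2(FPKM + 1) with sex as a covariate, 2-sided, with Benjamini-Hochberg adjustment over all 14203 genes tested and a threshold of 0.05. Of the 4 members tested, 0 were called, beside 3 of all genes (0.0211%), and 0 had an unadjusted p under 0.05, beside 7.40% of all genes. For Asic1 the log2 fold change was 0.22 (SE 0.13, adjusted p = 0.733), with a 95% interval from -0.06 to 0.49. The Asic1 value was 0.13 without nonresponder 4. For Asic3 the log2 fold change was -0.22 (SE 0.20, adjusted p = 0.807), with an interval from -0.66 to 0.22. Without responder 1 the Asic3 value was -0.05, and Asic3 averaged 50.4 ± 8.76 FPKM in the other 5 responders. For Piezo2 the log2 fold change was 0.13 (SE 0.13, adjusted p = 0.833), with an interval from -0.16 to 0.42. The Piezo2 value was 0.04 without nonresponder 1, 0.08 without responder 2 and 0.21 without nonresponder 3. For Piezo1 the log2 fold change was -0.18 (SE 0.17, adjusted p = 0.813), with an interval from -0.55 to 0.19, and the value was -0.03 without nonresponder 4 and -0.11 without responder 5. These intervals leave room for the Asic1 level to be up to 1.41 times as high and the Asic3 level as low as 0.633 times, on the log2(FPKM + 1) scale. The fold change on this scale understates that of low genes such as Piezo1.

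For the 2 genes below the filter, the values come from a fit with no filter on low values. Asic2 averaged 0.479 ± 0.172 FPKM in responders and 0.602 ± 0.154 FPKM in nonresponders (log2 fold change -0.12, SE 0.07, limma adjusted p = 0.869). Asic4 averaged 3.05 ± 6.13 FPKM in responders and 0.202 ± 0.109 FPKM in nonresponders (log2 fold change 0.88, SE 0.57, limma adjusted p = 0.869). The Asic4 difference was 0.32 without responder 1 and 0.07 without responders 1 and 2 and nonresponder 4. The groups overlapped for all 6 members, while they did not overlap for 0.549% of the genes tested.

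**Figure D2:**
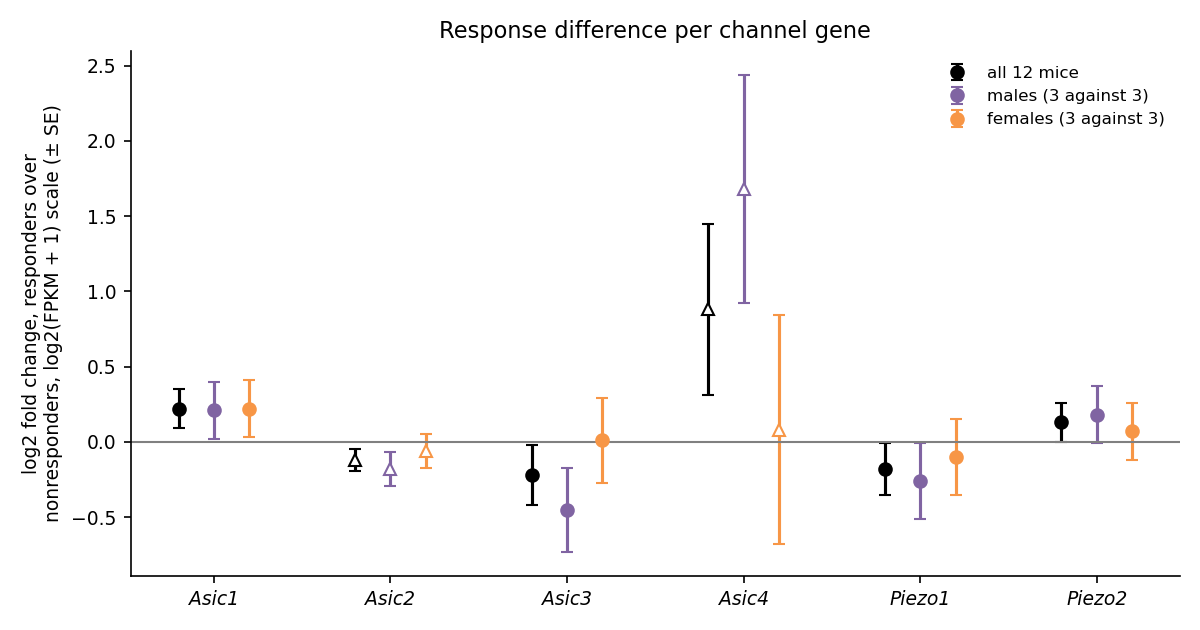
Log2 fold change of responders over nonresponders with its SE, for each gene, in all 12 mice (black), males (purple) and females (orange). Filled circles are genes of the test over all genes and open triangles the 2 genes below the filter, from the fit without it; Asic4 in males has the largest value, 1.68, with an SE of 0.76.

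Within each sex no member was called. In males, 3 responders against 3 nonresponders, the Asic3 value was -0.45 (SE 0.28, limma adjusted p = 0.739), with 41.1 ± 16.7 FPKM in responder males and 53.9 ± 9.63 FPKM in nonresponder males. In females it was 0.01 (SE 0.28, limma adjusted p = 1), with 50.9 ± 9.40 FPKM in responder females and 50.2 ± 5.39 FPKM in nonresponder females. The difference between these values, tested as the interaction of response and sex, was 0.46 (SE 0.40, limma adjusted p = 0.836). Asic4 averaged 5.81 ± 8.43 FPKM in responder males and 0.192 ± 0.118 FPKM in nonresponder males, against 0.288 ± 0.208 FPKM in responder females and 0.212 ± 0.125 FPKM in nonresponder females. The 2 mice above 1 FPKM of Asic4, responders 1 and 2, were both males and shared the description number 48. All 3 nonresponder males shared the number 82, and the fit counted them as separate mice. Values within a sex and the interaction cannot be told apart from whatever the number stands for. By limma with Benjamini-Hochberg adjustment, 0 of the 4 members tested were called in males (beside 0.0141% of all genes), 0 in females (beside 0.00704%) and 0 in the interaction (beside 0.0%). Unadjusted p under 0.05 was likewise reached by 0 members, beside 6.78% of all genes in males, 6.81% in females and 5.01% in the interaction.

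Females and males did not differ in any member past the test. Of the 4 members tested, 0 were called, and 0 had an unadjusted p under 0.05, beside 0.0563% and 4.53% of all genes by these limits. The 8 genes called included the sex-linked Xist and Ddx3y. Asic1 averaged 31.6 ± 4.89 FPKM in females and 31.1 ± 5.03 FPKM in males (n = 6 per sex; log2 fold change 0.02, SE 0.13, limma adjusted p = 0.971). Asic3 averaged 50.6 ± 6.87 FPKM in females and 47.5 ± 14 FPKM in males, and Piezo2 3.89 ± 0.875 FPKM in females and 4.17 ± 0.697 FPKM in males. Piezo1 averaged 1.11 ± 0.294 FPKM in females and 1.35 ± 0.746 FPKM in males. Asic2 averaged 0.632 ± 0.0784 FPKM in females and 0.449 ± 0.190 FPKM in males. In the fit without a filter its log2 fold change was 0.18, with an unadjusted p = 0.0356 by limma and an adjusted p = 0.865.

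The makeup of the ASIC transcripts stood apart in responder 1. Asic3 made up 32.5%, 55.5%, 56.5%, 62.1%, 58.7% and 62.8% of the summed ASIC FPKM in responders 1 to 6, and 64.8%, 63.4%, 63.6%, 66.4%, 63.9% and 59.6% in nonresponders 1 to 6. Nonresponder 6 lay within the range of the responders, and the other nonresponders lay above it. Asic1 made up 46.5%, 41.7%, 41.9%, 37.1%, 40.4% and 36.5% in responders, and 34.2%, 35.7%, 35.0%, 32.9%, 35.2% and 39.4% in nonresponders. The ratio of Asic3 to Asic1, which does not depend on how a library is scaled, was 0.698, 1.33, 1.35, 1.67, 1.45 and 1.72 in responders, and 1.89, 1.78, 1.82, 2.02, 1.82 and 1.51 in nonresponders. All nonresponders except nonresponder 6 lay above all responders. The ratio averaged 1.37 ± 0.367 in the 6 responders and 1.81 ± 0.168 in the 6 nonresponders and was not tested, being built from members chosen with earlier results known. The summed ASIC level itself was 83.2 ± 10.9 FPKM in responders and 81.9 ± 12 FPKM in nonresponders.

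**Figure D3:**
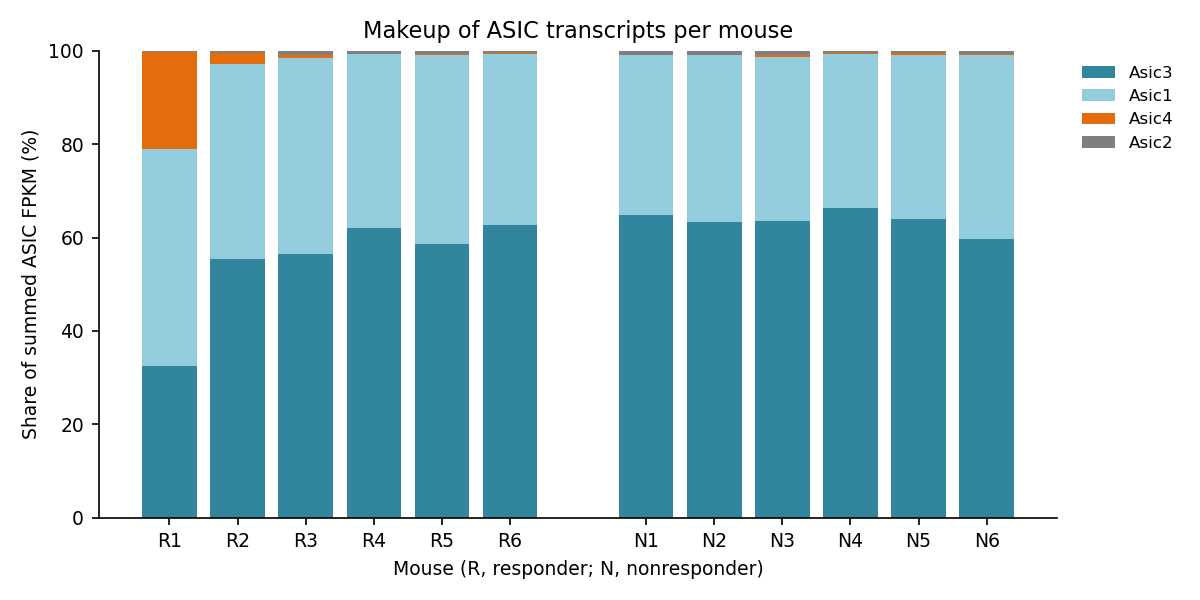
Share of the summed ASIC FPKM (percent) held by Asic3, Asic1, Asic4 and Asic2 in responders R1 to R6 and nonresponders N1 to N6, 1 bar per mouse. Asic4 holds 20.8% in R1 and 2.25% in R2, and at most 0.745% in every other mouse.

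The Piezo transcripts were mostly Piezo2 in every mouse. Piezo2 made up 74.7%, 82.5%, 74.4%, 79.0%, 85.3% and 83.7% of the summed Piezo FPKM in responders, and 69.6%, 82.0%, 77.9%, 54.8%, 78.0% and 79.9% in nonresponders. The lowest share, 54.8%, was that of nonresponder 4, whose Piezo2 level of 3.46 FPKM lay within the range of the other mice. The summed Piezo level was 5.31 ± 0.826 FPKM in responders and 5.22 ± 1.04 FPKM in nonresponders.

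Asic4 levels ran with those of genes of the pituitary gland, which lies next to the ganglia. The list of 14 pituitary genes, which includes the growth hormone gene Gh and the prolactin gene Prl, summed to 78300, 6900, 3730, 360, 1180 and 511 FPKM in responders 1 to 6. In nonresponders 1 to 6 it summed to 122, 27.4, 1060, 128, 882 and 591 FPKM. The mice with the 3 highest sums, responders 1, 2 and 3, also held the 3 highest Asic4 levels, in the same order. Across the 12 mice, log2 Asic4 FPKM and the log2 pituitary sum had Pearson's r = 0.93 (permutation p = 2e-05, adjusted p = 6e-05) and Spearman's rho = 0.91 (permutation p = 0.00015, adjusted p = 0.00045). Without responder 1 and nonresponder 2, the mice farthest from the median sum, r was 0.89. It was 0.97 within responders and 0.89 within nonresponders, where no mouse exceeded 0.319 FPKM of Asic4. Of the 13 pituitary genes tested, 13 had higher values in responders and 0 were called (10 at an unadjusted p under 0.05, which 3.23% of all genes reached in this direction; median log2 fold change 2.45, beside 0.00 for all genes), and no gene of the list was at 0 in all mice. The part of pituitary RNA in the Asic4 difference was not tested. In 8 other marker lists most tested genes had lower values in responders, again with 0 called, while 49.1% of all genes tested did. These were myelinating Schwann cells (12 of 13, median -0.44), satellite glia (9 of 12, median -0.18), fibroblasts and meninges (11 of 12, median -0.78) and neutrophils (12 of 12, median -1.37). The others were endothelium (14 of 16, median -0.19), the central nervous system (10 of 11, median -0.57), skeletal muscle (13 of 13, median -1.44) and bone and cartilage (5 of 5, median -0.95). An unadjusted p under 0.05 with a lower value in responders was reached by 4.17% of all genes. It was reached by 7 of 13 Schwann cell, 7 of 12 fibroblast and meningeal, and 3 of 5 bone and cartilage genes. The counts were 3 for satellite glia, 2 for the central nervous system, 1 for endothelium, 1 for skeletal muscle and 0 for neutrophils. Some genes of the pituitary and other lists stayed under 1 FPKM throughout 1 response group and passed the filter only through the other. Among them are genes counted above at an unadjusted p under 0.05 in the pituitary, fibroblast and bone lists. Their direction was in part set by the filter, and these counts are not read as support.

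Asic3 ran the other way. Its log2 level had r = -0.79 with the log2 pituitary sum (permutation p = 0.00353, adjusted p = 0.00436) and rho = -0.62 (permutation p = 0.0381, adjusted p = 0.0498). Without responder 1 and nonresponder 2, r was -0.44, and without responders 1 and 2 and nonresponder 4 it was -0.65. It was -0.97 within responders and -0.33 within nonresponders. The summed sensory neuron markers were also lowest in responder 1, at 1860 FPKM against 2120 to 4050 in the other mice. By the mean log2(FPKM + 1) of these markers, nonresponder 4 was lowest (5.599), with responder 1 next (5.667). Asic1 was not low in responder 1. These relations, and the one of Piezo1 with neutrophil genes, were chosen after the values were seen, and their p-values are adjusted over these 3 only.

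**Figure D4:**
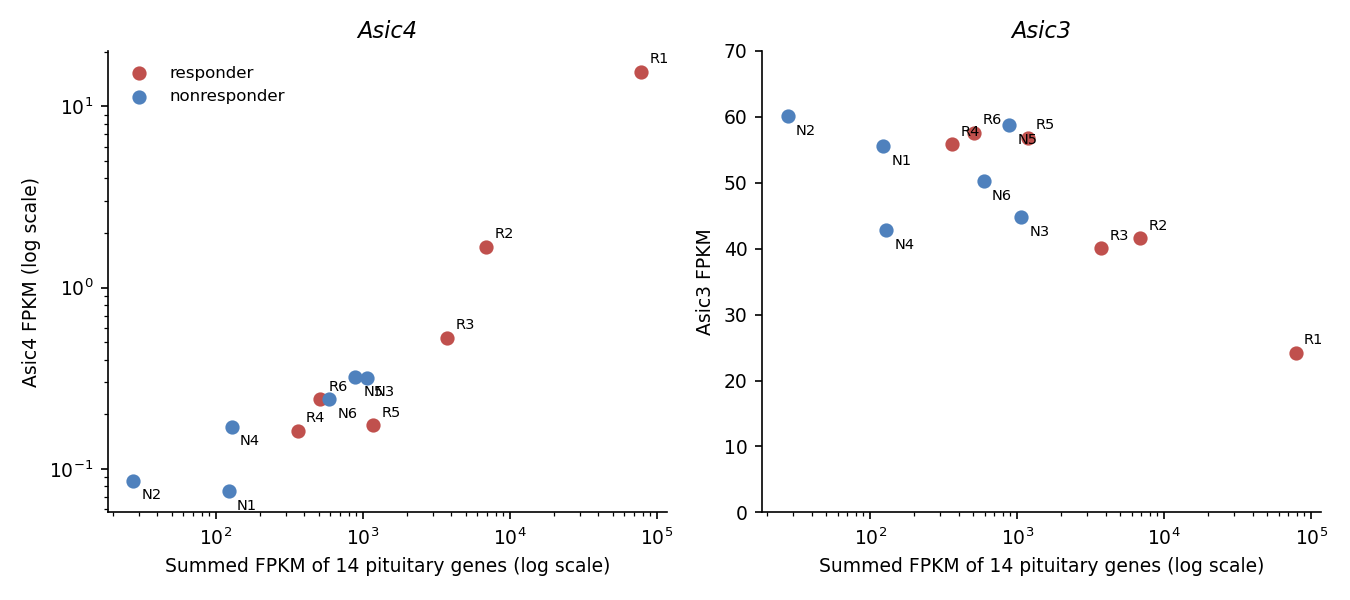
FPKM of Asic4 (left, log scale) and Asic3 (right, linear scale) against the summed FPKM of 14 pituitary genes (log scale), 1 point per mouse, with responders R1 to R6 in red and nonresponders N1 to N6 in blue. Asic4 runs up with the sum along the whole range (r = 0.93), and Asic3 is lowest in R1, at 24.2 FPKM, where the sum is 78300 FPKM.

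The Piezo1 level of nonresponder 4 stood beside high levels of neutrophil, macrophage, muscle and bone transcripts. The 12 neutrophil genes, which include Retnlg and S100a8, summed to 4380 FPKM in nonresponder 4. They summed to 12.7 to 651 FPKM in responders and to 8.60 to 897 FPKM in the other nonresponders, and no gene of the list was at 0 in all mice. Macrophage genes summed to 200 FPKM in nonresponder 4, against 51.5 to 109 FPKM in responders and 44.7 to 111 FPKM in the other nonresponders. Its skeletal muscle sum (2620 FPKM) and its bone and cartilage sum (216 FPKM) were also the highest of all mice. Nonresponder 3 came next in muscle (2280 FPKM), with Piezo1 at 1.43 FPKM, and nonresponder 5 in bone and cartilage (134 FPKM), with Piezo1 at 1.14 FPKM. The sensory neuron sum of nonresponder 4, 2120 FPKM, was the lowest among nonresponders. Log2 Piezo1 FPKM and the log2 neutrophil sum had r = 0.73 (permutation p = 0.00436, adjusted p = 0.00436) and rho = 0.59 (permutation p = 0.0498, adjusted p = 0.0498), with r = 0.54 without nonresponders 4 and 6. Within the groups r was 0.50 in responders and 0.81 in nonresponders. The part of neutrophils, macrophages, muscle or bone in the Piezo1 value was not tested, nor was the tissue from which the neutrophil transcripts came.

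A set of 39 relations was computed on log2(FPKM + 1): the 15 pairs of members, and each member with each of 4 marker lists (sensory neurons, mechanoreceptor and large neurons, endothelium, central nervous system). By Pearson's r, 5 passed an adjusted permutation p of 0.05, and by Spearman's rho 0 did. The count was sensitive to single mice, with 2 without responder 5, 3 without responder 2, nonresponder 1 or nonresponder 5, 1 without nonresponder 2 or nonresponder 4, and 0 without nonresponder 3. Piezo1 and Asic1 had r = -0.90 (permutation p = 0.00014, adjusted p = 0.00546) and rho = -0.69 (permutation p = 0.0162, adjusted p = 0.331). The value was -0.80 within responders, -0.93 within nonresponders and -0.65 without nonresponder 4 and responder 5, and without nonresponder 4 alone it was -0.78 with an adjusted permutation p = 0.0955. Without nonresponder 3 alone it was -0.94, with an adjusted permutation p = 0.0542. Asic3 and Asic4 had r = -0.89 (permutation p = 0.00148, adjusted p = 0.0192) and rho = -0.59 (permutation p = 0.0445, adjusted p = 0.347). This was -0.60 without responders 1 and 3, -0.95 within responders and -0.32 within nonresponders, and without responder 1 alone it was -0.61 with an adjusted permutation p = 0.105. The adjusted permutation p also missed 0.05 without nonresponder 2 (-0.89, p = 0.0563) and without nonresponder 3 (-0.90, p = 0.0542). The largest Pearson value of Piezo2 with another member was r = -0.12 with Asic2 (rho = -0.13, permutation p = 0.712, adjusted p = 0.926), and Asic1 with Asic3, the abundant pair, had r = 0.17 (rho = 0.36, permutation p = 0.573, adjusted p = 0.875). For Asic1 with Asic3, r was 0.21 within responders, 0.87 within nonresponders, 0.05 without nonresponders 3 and 4, and 0.56 without responder 1 and nonresponder 4. For Piezo2 with Asic2, it was -0.01 within responders, -0.01 within nonresponders, 0.25 without nonresponder 1 and responder 2, and -0.61 without responder 1 and nonresponder 4.

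Of the relations with marker lists, 3 passed. Piezo1 had r = 0.72 with the endothelial list (permutation p = 0.00137, adjusted p = 0.0192; rho = 0.69, permutation p = 0.017, adjusted p = 0.331), with r = 0.84 without nonresponder 4 and responder 4. Within the groups this was 0.51 in responders and 0.84 in nonresponders. Piezo1 had r = -0.73 with the sensory neuron list (permutation p = 0.00364, adjusted p = 0.0355; rho = -0.52, permutation p = 0.0895, adjusted p = 0.406), with r = -0.57 without nonresponder 4 and responder 1, and -0.45 in responders and -0.90 in nonresponders. Asic1 had r = -0.71 with the endothelial list (permutation p = 0.00625, adjusted p = 0.0487; rho = -0.63, permutation p = 0.032, adjusted p = 0.347), with r = -0.59 without nonresponder 4 and responder 4, and -0.27 in responders and -0.88 in nonresponders. Without nonresponder 4, all 3 missed the threshold, with adjusted permutation p from 0.174 to 0.289. Leaving out responder 5, nonresponder 2 or nonresponder 3 likewise ended all 3 calls, and centring each response group on its mean gave -0.70, 0.68 and -0.63 for Piezo1 with neurons, Piezo1 with endothelium and Asic1 with endothelium, with adjusted permutation p from 0.0534 to 0.0741. The member and the markers in each relation come from the same libraries and share their depth and scaling.

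**Figure D5:**
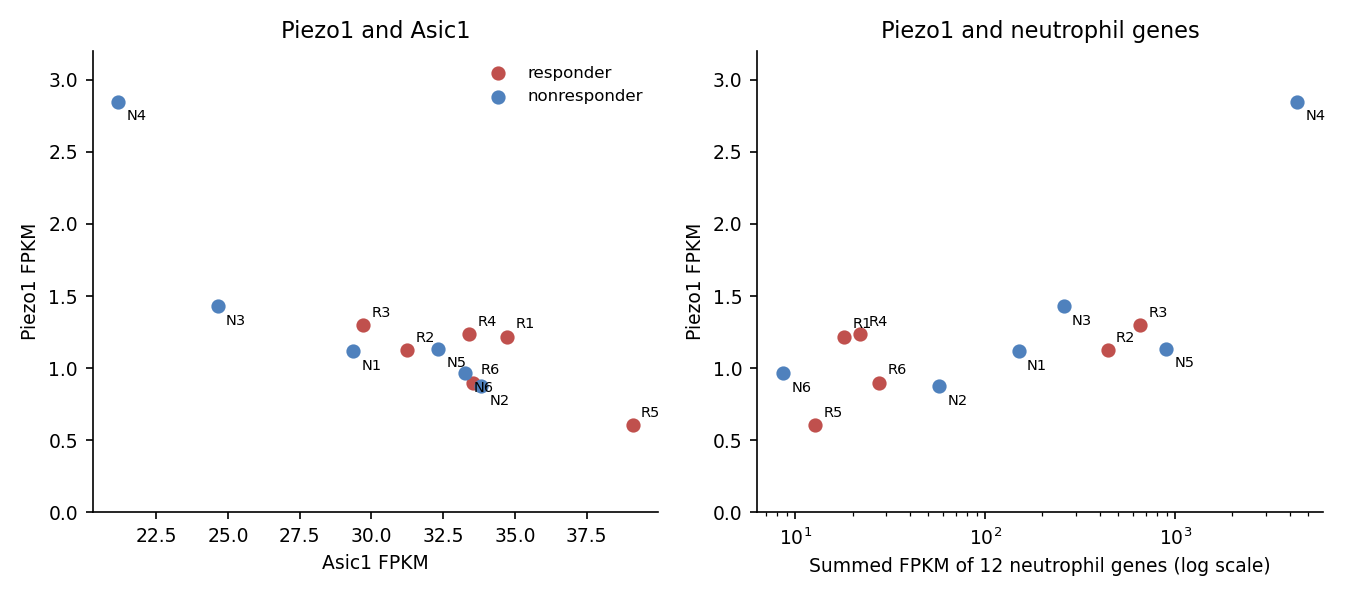
Piezo1 FPKM against Asic1 FPKM (left) and against the summed FPKM of 12 neutrophil genes (right, log scale), 1 point per mouse, with responders R1 to R6 in red and nonresponders N1 to N6 in blue. N4 holds the highest Piezo1 level (2.85 FPKM), the lowest Asic1 level (21.2 FPKM) and the highest neutrophil sum (4380 FPKM).

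In the lists of Piezo and ASIC partners, proteins known to bind or tune these channels, no tested gene was called between responders and nonresponders. Of the 7 tested Piezo partners, 0 were called, 4 had higher and 3 lower values in responders, and the median log2 fold change was 0.06. Stom, stomatin, a membrane scaffold that tunes ASIC and Piezo currents, averaged 7.64 ± 2.12 FPKM in responders and 13.2 ± 9.44 FPKM in nonresponders (log2 fold change -0.54, limma adjusted p = 0.742). Tmem150c, a modulator of Piezo currents, averaged 2.40 ± 0.801 FPKM in responders and 1.89 ± 0.456 FPKM in nonresponders. Mtmr2, a lipid phosphatase that tunes Piezo2, stood at 19.1 ± 2.98 FPKM in responders and 20.3 ± 1.53 FPKM in nonresponders, and Atp2a2, the calcium pump that binds Piezo1, at 78.5 ± 8.95 and 72.5 ± 7.78 FPKM.

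Of the 11 tested ASIC partners, 0 were called, and 2 were higher and 0 lower at an unadjusted p under 0.05, beside 3.23% and 4.17% of all genes in these directions. Patj, a scaffold protein with many PDZ domains that is reported to bind ASIC3, averaged 19.4 ± 3.80 FPKM in responders and 13.7 ± 1.92 FPKM in nonresponders (log2 fold change 0.46, SE 0.12, limma adjusted p = 0.445). Pick1, a PDZ protein that binds ASIC1 and ASIC2, averaged 12.6 ± 1.42 FPKM in responders and 10.3 ± 1.65 FPKM in nonresponders (log2 fold change 0.27, limma adjusted p = 0.645). S100a10, which brings ASIC1a to the surface, was listed at 0.779 ± 1.07 FPKM in responders and 0.964 ± 0.499 FPKM in nonresponders. Stoml3, the stomatin relative needed for touch, was at 0 in some mice and reached 7.57 FPKM in 1, and did not pass the filter.

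Among 9 tested genes of other mechanically gated channels, 0 were called, with 8 higher and 1 lower in responders (median 0.16). Kcnk10, a stretch-sensitive potassium channel gene, averaged 1.87 ± 0.117 FPKM in responders and 1.51 ± 0.308 FPKM in nonresponders (log2 fold change 0.20, limma adjusted p = 0.660), the only gene of this list with an unadjusted p under 0.05, which 3.23% of all genes reached in this direction. Tmem63c, a relative of plant osmosensing channels, stood at 15.8 ± 2.56 FPKM in responders and 13.2 ± 2.00 FPKM in nonresponders. Lhfpl5, a subunit of the hair cell transduction complex, stood at 11.3 ± 2.18 and 9.86 ± 2.03 FPKM in these groups, and Lrrc8a, of the volume-regulated anion channel, at 11.1 ± 3.49 and 8.66 ± 6.15 FPKM.

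Of the 7 tested genes of other proton sensors, 0 were called, with 4 higher and 3 lower in responders (median 0.02). Gpr4, a proton-sensing receptor of endothelium, averaged 0.519 ± 0.132 FPKM in responders and 1.13 ± 0.345 FPKM in nonresponders (log2 fold change -0.48, SE 0.11, limma adjusted p = 0.308), the only gene of this list with an unadjusted p under 0.05, which 4.17% of all genes reached in this direction. Every responder lay under 1 FPKM (highest 0.699), so that Gpr4 passed the filter only through nonresponders, the group where it was higher. Beside it, 14 of 16 endothelial marker genes had lower values in responders and 2 higher (median -0.19, 0 called), none was at 0 in all mice, and the range of their sum was 75.3 to 135 FPKM in responders and 80.0 to 127 FPKM in nonresponders. The part of endothelial RNA in the Gpr4 value was not tested. Otop1, a proton channel gene, averaged 0.680 ± 0.429 FPKM in responders and 2.23 ± 2.36 FPKM in nonresponders. Tmem206, the proton-activated chloride channel gene, averaged 8.13 ± 2.48 FPKM in responders and 6.82 ± 0.586 FPKM in nonresponders. P2rx3, a receptor gene of nociceptors, did not pass the filter and was listed at 0.0786 to 2.08 FPKM, from which no low level in the ganglion is read. None of the 4 relatives Asic5, Scnn1a, Scnn1b and Scnn1g passed the filter, and Asic5 reached 0.0970 FPKM at most.

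The genes whose pattern over the 12 mice lay nearest to each member, by the root mean square difference of centred log2(FPKM + 1) values among protein-coding genes that varied at least as much, were Gnb3 (0.13) and Chgb (0.27) for Asic4. Gnb3, a G protein subunit gene, stood at 23.9 FPKM in responder 1 and at 0.708 FPKM in nonresponder 4. Chgb, the gene of the secretory granule protein chromogranin B, averaged 260 ± 385 FPKM in responders and 61.2 ± 8.10 FPKM in nonresponders. For Asic3 they were Crip2 (0.12) and Fxyd2 (0.14), a regulator of the sodium pump, both lowest in responder 1 (64.0 and 84.9 FPKM). For Piezo1 they were Cep76 (0.13) and Sap30 (0.13), both highest in nonresponder 4 (6.71 and 7.29 FPKM). They were Rprm (0.10) and Tbc1d25 (0.10) for Asic1, both lowest in nonresponder 4, Phactr2 (0.14) and Gm14325 (0.16) for Piezo2, and Cyc1 (0.07) and Fam189a2 (0.07) for Asic2.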

How the data were processed

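Trigeminal ganglia of 12 CD1 mice (6 responders, 6 nonresponders) were sequenced after poly A selection, with extraction and library preparation by a company, per the labels' protocols. The authors deposited 1 table of values per Ensembl gene and mouse, taken here as FPKM because the values were not whole and their totals differed between mice; its header names no unit. STAR 2.6.0a and StringTie 1.3.5 with the GRCm38 and mm10 builds are named in the submitters' processing notes. No source used here gives the annotation release, settings, filters or use of strand. Response groups came from the sample titles and sex from the characteristics, and columns were matched by description. Of the 51341 identifiers, 51076 were in the GENCODE M21 annotation of GRCm38, which gave symbols and coordinates.

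The test was limma 3.58.1 (R 4.3.3) on log2(FPKM + 1), for the 14203 genes that reached 1 FPKM in 3 or more mice (9 residual and 2.23 prior degrees of freedom), with Benjamini-Hochberg adjustment over all of them. Within-sex and interaction values came from 4 cell means over all mice. Permutation p-values for correlations came from 100000 resamples, 2-sided, with 1e-05 as the smallest possible. Start regions were those of RefSeq on GRCm38.p6, used for 4 of the 6 members (not Piezo2 or Asic4). Similar transcripts were searched with blastn 2.17.0. The test was checked on simulated data. No read counts were used, so that counting intervals were not made. Implied fragments were read from 18264 single-exon genes and limit the precision of values well under 1 FPKM. An exact 0 was read as a listing, not as absence.

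The members, gene lists and tests were chosen with earlier results of these data known. The genes named are the 6 members, the up to 4 tested genes of each pathway list with the smallest p (1 of them is not reported here), and for each member the 2 genes of nearest pattern; Asic5, S100a10 in its low level, Stoml3, P2rx3, Scnn1a, Scnn1b, Scnn1g, Ctu2, Xist and Ddx3y were named after their values were seen. The rule also named 2 genes of every marker list; these are given only for lists that stand beside a result. Alternatives covered the pseudocount (0.1), filters, scaling, covariates, weights and leaving out mice.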

Additional observations from a re-analysis of the deposited data

Results flagged for a closer look

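The 16 groups of 6 values were the FPKM of the 6 members and the ratios of Asic3 to Asic1 and of Piezo2 to Piezo1, in each response group. Of these, 2 held a mouse whose gap to its neighbour exceeded 0.625 of the group's range. For normally distributed values, chance gives about 1 in 20 such groups. The values here were FPKM without a log scale, and the ratios are built from the members, so that this rate need not hold for them. The first was Asic4 in responder 1, at 15.5 FPKM against 0.162 to 1.68 FPKM in the other responders, with a gap of 0.90 of the range. The other was Piezo1 in nonresponder 4, at 2.85 FPKM against 0.876 to 1.43 FPKM in the other nonresponders, with a gap of 0.72 of the range. Responder 1 also held the highest pituitary sum (78300 FPKM) and nonresponder 4 the highest neutrophil sum (4380 FPKM), and their part in these values was not tested.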

How the results depend on the processing

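The response fold changes of Piezo1, Piezo2, Asic1 and Asic3 missed the threshold in all 104 alternatives run (26 per gene), with 0.518 as the smallest adjusted p by limma, and 0 turned round. Relative to the sensory neuron markers, Piezo2 was at 0.00, with no direction left, Asic1 at 0.09, Piezo1 at -0.31 and Asic3 at -0.35. Leaving out 1 mouse in turn gave -0.26 to -0.03 for Piezo1, 0.04 to 0.21 for Piezo2, 0.13 to 0.27 for Asic1 and -0.32 to -0.05 for Asic3. Counts of genes called over the whole table were less stable. Between responders and nonresponders, 3 genes were called, 1 with a replicate block, 1 with mice averaged by description number, and 2 to 6 without each mouse in turn (5 without responder 2, and 6 without responder 5 or responder 6). The labels give no pairing of mice by replicate number. The 6 correlations of same-numbered mice ran from -0.273 to 0.133, and 0 of 6 correlated best with their own number. Low correlations over all genes cannot exclude a link between same-numbered mice. Between females and males, 8 were called, 5 with the block and 6 to 9 without each mouse. In the interaction, 0 were called, 508 with array weights, 1 relative to the sensory neuron markers, 3 without responders 1 and 2 and nonresponder 4, and 0 to 3 without each mouse. Within males 2 were called, with 4 at a pseudocount of 0.1, 0 with the block, 5787 with array weights, 1 without responder 1 and nonresponder 4, 1 relative to the neuron markers, 5 without responders 1 and 2 and nonresponder 4, and 1 to 5 without each mouse. Within females 1 was called, with 5 under no filter, 0 with the block, 11 with array weights, 3 without responder 1 and nonresponder 4, 6 without responders 1 and 2 and nonresponder 4, and 1 to 5 without each mouse. The weights of the model with 4 cell means ran from 0.142 to 21.4 and their estimate gave a convergence warning. The 2 highest were those of the males nonresponder 5 (21.4) and responder 2 (7.35), against 0.142 to 0.551 in the other males. With these weights, Piezo2 (0.31, adjusted p = 0.0167 by limma) and Asic3 (-0.46, adjusted p = 0.00273 by limma) passed within males. The weighted comparison within males thus rested mostly on 1 mouse per response group, and no within-male difference is read from it. Of the 39 correlations, 5 passed by Pearson's r, 8 after rescaling to equal totals, 2 after quantile normalization, 0 without responder 1 and nonresponder 4, and 0 to 5 without each mouse.

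Some small log2 fold changes, none of which passed, turned round. Without responder 1 and nonresponder 4, the female over male values were 0.06 for Piezo1, -0.06 for Asic1 and -0.10 for Asic3, the Piezo1 interaction was -0.10, and within males Piezo1 was 0.01 and Asic1 -0.03. Without responders 1 and 2 and nonresponder 4, the female over male values were 0.10 for Piezo1, -0.11 for Asic1 and -0.22 for Asic3, and the Piezo1 interaction was -0.02. Relative to the sensory neuron markers, Asic1 was -0.11 between the sexes, the interactions were -0.17 for Piezo1 and -0.32 for Asic1, and within females Piezo2 was -0.22, Asic1 -0.07 and Asic3 -0.28. With the replicate block, the Piezo1 interaction was -0.26, and within females Piezo2 was -0.21 and Asic3 -0.04. With array weights, the Piezo1 interaction was -0.04 and Asic1 within males was -0.03. With quantile normalization, the Asic1 interaction was -0.06 and Asic3 within females was -0.02. Without each mouse in turn, the female over male values ranged from -0.20 to 0.03 for Piezo1, -0.07 to 0.08 for Asic1 and -0.03 to 0.24 for Asic3. The interactions ranged from -0.15 to 0.37 for Piezo1, -0.31 to 0.07 for Piezo2 and -0.11 to 0.22 for Asic1. Piezo1 within males ranged from -0.46 to 0.05, and within females the ranges were -0.19 to 0.07 for Piezo1, -0.13 to 0.25 for Piezo2 and -0.08 to 0.17 for Asic3. The cause was not tested. Values relative to the neuron markers and those without 3 mice were chosen after the data were seen. Depth limits Asic2 and most Asic4 values, which lie under 1 FPKM.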
